A study of Mus musculus with 6 samples.

Results

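The genes of blood coagulation and fibrinolysis described here, 9 of 13702 genes measured, were followed in dystrophic muscle with and without Notch1 activation. They were F7, F10, F5, F13a1 and F3, which encode clotting factors and tissue factor, and Plau, Plaur, Plat and Thbd, which encode activators of fibrinolysis, a receptor and thrombomodulin. The genes were selected on their role and with their log2 ratios in these muscles already known, so the ratios below are a description and not a test of the choice. RNA came from tibialis anterior (TA) muscles of 3 mdx and 3 N1ICD-mdx mice, each 9 months old, on a 129 × C57BL/6 strain background and fed regular chow. All 6 mice carried the mdx mutation and lacked dystrophin. In N1ICD-mdx mice MCK-Cre, which is active in muscle fibers, also switched on the Notch1 intracellular domain (N1ICD) from the Rosa26 locus, so the transgene was not driven in the other cells of the muscle. The 3 mice of a group are given as biological replicates.

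Each of 3 two-color Agilent arrays held 1 mdx muscle in Cy3 (green) and 1 N1ICD-mdx muscle in Cy5 (red), numbered by replicate. No array had the dyes swapped, so genotype and dye cannot be told apart in any value below. A log2 ratio is the N1ICD-mdx signal over the mdx signal within an array, and a negative ratio means less RNA in the N1ICD-mdx muscle. A level is the log2 normalized intensity of a muscle, to be compared between muscles for a probe but not between probes. Median signals of the arrays were 49 to 53 in mdx and 23 to 27 in N1ICD-mdx muscles, over median backgrounds of 42 to 47 and 17, and no spot was saturated. The mdx muscle of replicate 2 stood apart: over all genes its levels correlated with those of the other 5 muscles at r of 0.967 to 0.982, against 0.987 to 0.994 among the others. The SD of the log2 ratios over genes was 0.54 on array 2, against 0.24 on each of the other arrays. For this reason the mean ratio of each of the 9 genes, and the median of each marker list, is also given without replicate 2. Of the listed markers of muscle fibers, 8 of 8 were kept, which means that every muscle of a group, or of both, gave a signal well above background. Endothelial and fibroblast markers were kept in the same way (10 of 10 and 8 of 8), so this does not test the label of the tissue. As a check of the genotype labels, the Notch targets Heyl, Nrarp, Hey1 and Hes1 had mean log2 ratios of 0.44, 0.28, 0.21 and 0.11, while Hes5 and Hey2 were too dim to be kept. None of the 4 was called. The probe of Notch1 (mean -0.12) checks nothing, because its position relative to the transgene is not known.

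Coagulation starts when tissue factor, the membrane protein encoded by F3, binds factor VII and the complex activates factor X. Factor X and its cofactor, factor V, then generate thrombin, which makes fibrin, and factor XIII cross-links the fibrin strands. Fibrin is removed by plasmin, made from plasminogen by the urokinase (Plau) and tissue (Plat) activators, and urokinase is held at the cell surface by its receptor (Plaur). Thrombomodulin (Thbd) turns thrombin toward protein C activation on endothelium. Factors VII, X and V circulate mainly from the liver, whereas F13a1 is known for its expression in monocytes, macrophages and platelets. In dystrophic muscle, fibrin deposits and infiltrating macrophages are well-known features.

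Upstream sequences are shown for F7, F10 and F13a1, the 3 genes with the lowest ratios, so that the neighboring pair and the third gene can be read side by side. Each line is the 250 bases before the RefSeq start site on the sense strand, in GRCm38.p6. F7 lies at chr8:13025784-13026033 on the plus strand, F10 at chr8:13037058-13037307 on the plus strand and F13a1, at its most upstream start, at chr13:37050245-37050494 on the minus strand. Capitals mark the searched motifs.
F7: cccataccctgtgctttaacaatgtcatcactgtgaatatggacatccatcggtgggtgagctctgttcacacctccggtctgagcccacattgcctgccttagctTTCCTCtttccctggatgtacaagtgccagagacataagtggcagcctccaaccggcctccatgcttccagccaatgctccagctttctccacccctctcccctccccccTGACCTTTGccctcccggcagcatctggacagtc
F10: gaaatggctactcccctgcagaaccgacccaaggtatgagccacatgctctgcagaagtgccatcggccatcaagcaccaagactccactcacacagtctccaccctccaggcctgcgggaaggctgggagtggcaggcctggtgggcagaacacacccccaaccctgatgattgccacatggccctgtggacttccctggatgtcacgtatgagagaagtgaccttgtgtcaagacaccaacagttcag
F13a1: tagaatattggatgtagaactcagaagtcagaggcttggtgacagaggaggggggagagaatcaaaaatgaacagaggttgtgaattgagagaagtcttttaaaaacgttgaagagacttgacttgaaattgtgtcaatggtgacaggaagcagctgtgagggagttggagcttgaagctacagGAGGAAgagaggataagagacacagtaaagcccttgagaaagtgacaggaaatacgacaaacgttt
Searches covered both strands for RBPJ (TGGGAA), the DNA-binding partner of N1ICD, and for AP-1 (TGANTCA), PU.1 (GAGGAA) and an HNF4-type motif (CAAAGGTCA). These motifs were chosen with the sequences in view. The F7 window held a PU.1 match starting 144 bases and an HNF4-type match starting 34 bases before the start site, and the F13a1 window held a PU.1 match starting 66 bases before it. The F10 window held none of the 4 motifs, and none of the 3 windows shown held the RBPJ letters. Of the 32851 windows of the table, 21.6% held RBPJ, 6.75% AP-1, 23.3% PU.1 and 0.426% the HNF4-type letters. Among the 6 of 9 genes that matched a window (7 windows in all), AP-1 letters were found upstream of F3 and Plaur, RBPJ letters only at the second start of F13a1, PU.1 letters in 3 of the 7 windows (F7, F13a1 and Plaur) and the HNF4-type letters at F7 alone. A match is a run of letters and not a shown binding site.

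F7, F10 and F13a1 were lower in N1ICD-mdx than in mdx muscles on each of the 3 arrays, by 1.87 to 2.18-fold on average, with the largest difference on array 2. Plaur had the same pattern but hardly differed on array 3. The other 5 genes had mean log2 ratios between -0.16 and -0.03, and 4 of these 5 means were smaller than their SD over arrays. At 1.5-fold and an unadjusted p under 0.05, called here, 3 of 9 genes were lower and 0 were higher, where 0.482% of all genes were called lower and 0.956% in either direction. These shares are given beside the count only, since the ratios chose the genes. At an adjusted p under 0.05, 0% of all genes were called (limma, Benjamini-Hochberg over 13702 genes). At an unadjusted p under 0.05, 890 of 13702 genes passed. In whole muscle, fewer cells of a type and less RNA per cell cannot be told apart.

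**Figure D1:**
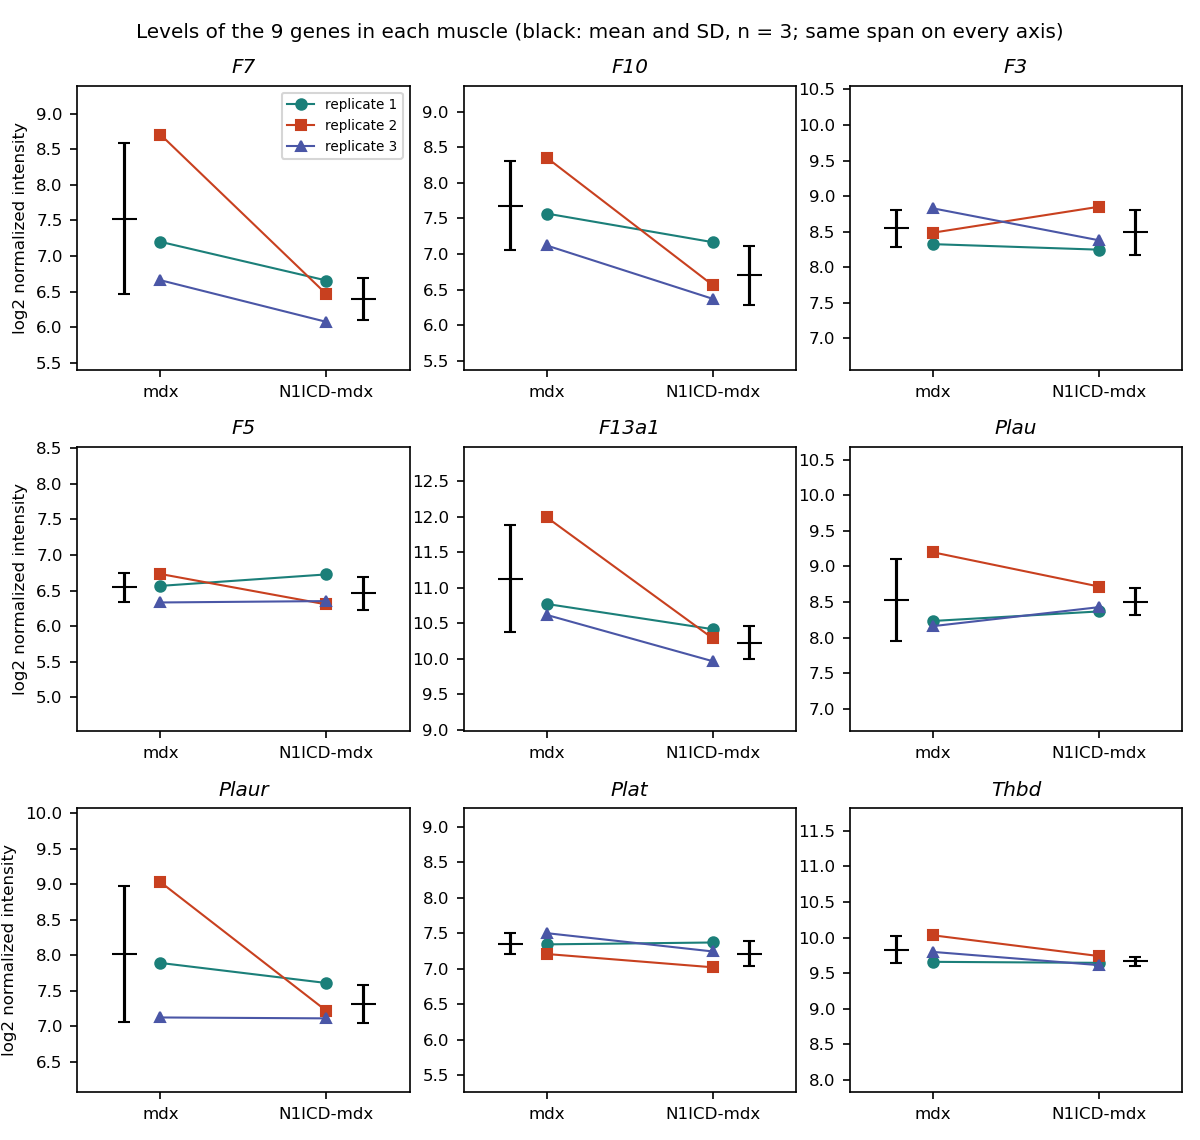
Level (log2 normalized intensity, y axis) of each of the 9 genes in mdx and N1ICD-mdx muscles (x axis) on its brightest probe. Lines join the muscles of an array, black bars give mean and SD (n = 3 muscles), and the axes span the same range. The mdx muscle of replicate 2 is the highest point for 7 genes, and F7 and F13a1 have no overlap between groups.

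Factor VII, the protease that partners tissue factor, is encoded by F7, which had 2 probes, both well above background in all 6 muscles. None of the 13 probes of the 9 genes carried an outlier or saturation flag, and 11 of the 13 were kept. On the brighter probe (A_55_P2045040) the median signals of mdx replicates 1, 2 and 3 were 158, 413 and 90.5 over local backgrounds of 42.5, 50 and 43. In the N1ICD-mdx muscles they were 55.5, 29 and 25.5 over 17, 18 and 18. F7 was thus a dim gene, and in replicates 2 and 3 its N1ICD-mdx signal lay 11 and 7.5 units above background. Its level was 7.20, 8.71 and 6.66 in mdx and 6.65, 6.46 and 6.07 in N1ICD-mdx muscles. Every mdx muscle was above every N1ICD-mdx muscle, though the lowest mdx level and the highest N1ICD-mdx level nearly touched. The log2 ratios of arrays 1, 2 and 3 were -0.54, -2.25 and -0.59, a mean of -1.13 ± 0.39 (SE, n = 3 arrays). This is 2.18-fold lower, and without replicate 2 the mean was -0.57, or 1.48-fold lower. The adjusted p of limma was 0.704. On the second probe (A_51_P484054) the levels were 6.98, 8.59 and 6.58 in mdx and 6.76, 6.44 and 6.17 in N1ICD-mdx muscles. It gave ratios of -0.22, -2.14 and -0.40, a mean of -0.92 that became -0.31 without replicate 2, and its groups overlapped. Both probes put mdx replicate 2 well above the other muscles, by 1.51 and 1.60 over the next highest. On the processed signals of the scanner software, which have another background correction, the brighter probe gave -0.91, -4.10 and -2.11, so the size of the F7 ratio depended on how background was removed.

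F10 encodes factor X, the protease activated by factor VII with tissue factor. Its 1 probe was well above background in all 6 muscles. Median signals were 219, 316 and 138 in mdx and 94, 34 and 39 in N1ICD-mdx muscles. The F10 level was 7.57, 8.36 and 7.12 in mdx and 7.17, 6.56 and 6.37 in N1ICD-mdx muscles. The groups overlapped by the small margin between N1ICD-mdx replicate 1 and mdx replicate 3. The log2 ratios were -0.40, -1.79 and -0.75, a mean of -0.98 ± 0.30 (SE, n = 3), or 1.98-fold lower. Without replicate 2 the mean was -0.58, or 1.49-fold lower, with an adjusted p of 0.704 over the 3 arrays (limma). On the processed signals the mean was -1.82, larger by more than its SD over arrays of 0.72.

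F7 and F10 follow each other on chromosome 8 in the RefSeq gene order, so their neighbors were read for comparison. Before them lie Tubgcp3, Atp11a and Mcf2l, and after them Proz, Pcid2 and Cul4a. Proz, which encodes protein Z, was never above background. The mean log2 ratios of the other 5 neighbors lay between -0.15 and 0.15, and none was called.

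F5 encodes factor V, the cofactor of factor X. Its brighter probe was well above background in all muscles, with levels of 6.57, 6.73 and 6.33 in mdx and 6.73, 6.31 and 6.35 in N1ICD-mdx muscles. The F5 ratios were 0.16, -0.43 and 0.02, a mean of -0.08 ± 0.15 (SE, n = 3), and 0.09 without replicate 2. The groups overlapped and the mean changed sign with replicate 2. The second F5 probe was above background in none of the 6 muscles (signals of 39 to 45.5 in mdx and 17 to 20.5 in N1ICD-mdx muscles), so no fold is given for it.

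F13a1 encodes the A subunit of factor XIII, which cross-links fibrin. Its brighter probe was well above background in all 6 muscles. Median signals were 2361, 3715 and 2059 in mdx and 1203.5, 847 and 909 in N1ICD-mdx muscles. The F13a1 level was 10.77, 11.99 and 10.62 in mdx and 10.42, 10.29 and 9.97 in N1ICD-mdx muscles. Here too every mdx muscle was above every N1ICD-mdx muscle. The ratios were -0.36, -1.70 and -0.65, a mean of -0.90 ± 0.29 (SE, n = 3), or 1.87-fold lower. Without replicate 2 the mean of F13a1 was -0.50, or 1.42-fold lower, and the processed signals gave -0.91 over all 3 arrays. Its adjusted p was 0.704 (limma). The second F13a1 probe was above background in 2 of 3 mdx and 1 of 3 N1ICD-mdx muscles (signals of 49.5 to 63.5 and 21 to 25) and was not kept. Its ratios, mostly against background, were -0.08, -0.25 and 0.06. Groups that did not overlap in this direction, seen for F7 and F13a1, occurred in 6.25% of all genes.

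**Figure D2:**
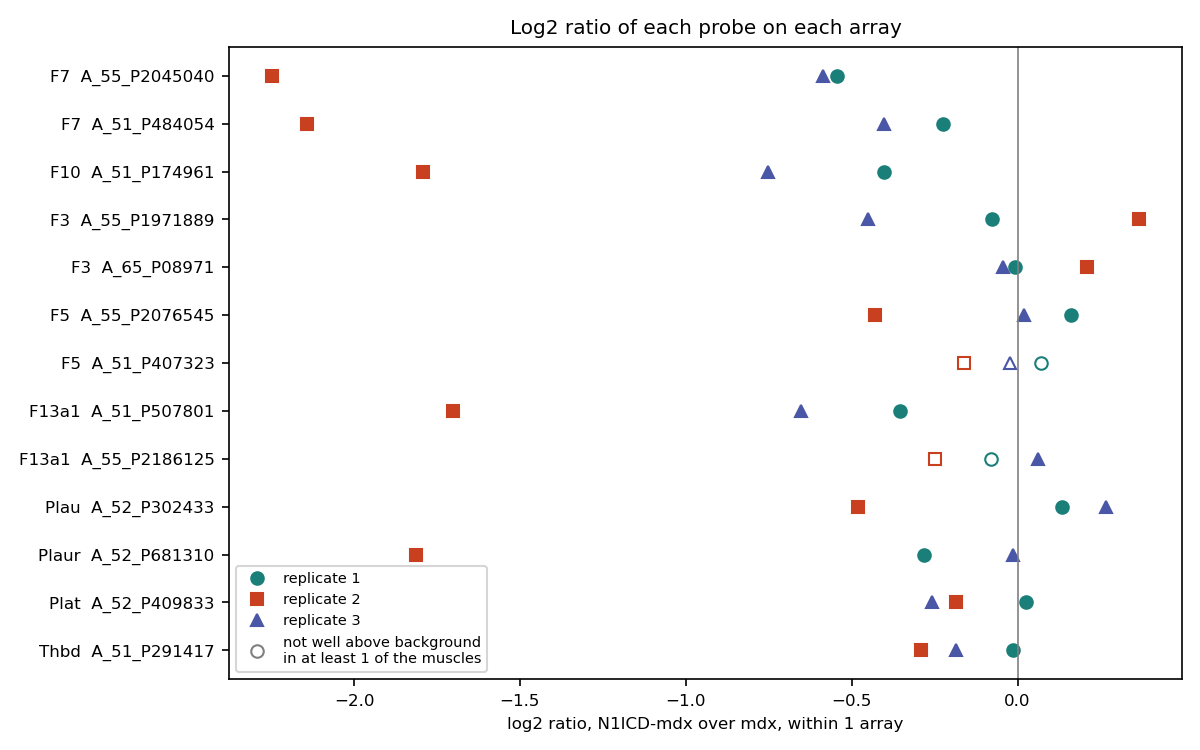
Log2 ratio of N1ICD-mdx over mdx (x axis) of each of the 13 probes (y axis, gene and probe) on each array. Open symbols mark a probe that was not well above background in at least 1 of the muscles. Replicate 2 (squares) lies between -2.25 and -1.70 for F7, F10, F13a1 and Plaur on their kept probes, and replicates 1 and 3 lie closer to 0.

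F3 encodes tissue factor, the membrane protein that starts coagulation. Its level was 8.32, 8.48 and 8.83 in mdx and 8.25, 8.85 and 8.38 in N1ICD-mdx muscles on the brighter probe. The F3 ratios of -0.08, 0.37 and -0.45 had no common sign, and their mean was -0.05 ± 0.18 (SE, n = 3), or -0.26 without replicate 2. The groups overlapped on both probes. On the second, dimmer F3 probe the levels were 6.29, 6.39 and 6.30 in mdx and 6.28, 6.60 and 6.25 in N1ICD-mdx muscles, with ratios of -0.01, 0.21 and -0.04. F3 was, with Plat, the gene in which mdx replicate 2 was not the highest muscle, and array 2 had the positive ratio on both probes.

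Thbd encodes thrombomodulin, the thrombin receptor of endothelium. Its level was 9.66, 10.03 and 9.80 in mdx and 9.64, 9.74 and 9.61 in N1ICD-mdx muscles. The ratios of -0.01, -0.29 and -0.19 were all negative, with a mean of -0.16 ± 0.10 (SE, n = 3) and -0.10 without replicate 2. This difference is 1.12-fold, and the groups overlapped.

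Among the genes of fibrinolysis, Plaur, the urokinase receptor, had the lowest ratio. Its level was 7.89, 9.03 and 7.13 in mdx and 7.61, 7.22 and 7.11 in N1ICD-mdx muscles. The Plaur ratios were -0.28, -1.81 and -0.01, a mean of -0.70 ± 0.39 (SE, n = 3) or 1.63-fold lower. Without replicate 2 the mean was -0.15, or 1.11-fold lower, and Plaur was not called. Its difference thus lay mostly on array 2, and the groups overlapped.

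Plau, which encodes urokinase itself, had levels of 8.23, 9.20 and 8.16 in mdx and 8.37, 8.72 and 8.43 in N1ICD-mdx muscles. Its ratios were 0.13, -0.48 and 0.27, a mean of -0.03 ± 0.18 (SE, n = 3) and 0.20 without replicate 2. Like Plaur, Plau was highest in mdx replicate 2, but arrays 1 and 3 had positive ratios. Plat, the tissue activator, had levels of 7.34, 7.21 and 7.50 in mdx and 7.37, 7.02 and 7.24 in N1ICD-mdx muscles. Its ratios were 0.03, -0.19 and -0.26, a mean of -0.14 ± 0.10 (SE, n = 3) and -0.12 without replicate 2. For both activators the groups overlapped. The adjusted p-values of limma were 0.704 for Thbd and Plaur, 0.714 for Plat, 0.866 for F5, 0.932 for F3 and 0.966 for Plau.

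Across the 9 genes, the mdx muscle of replicate 2 was the highest of the 6 for 7 genes, which was so for 30.1% of all genes. Its level exceeded the mean of the other 2 mdx muscles by 1.78 for F7, 1.52 for Plaur, 1.30 for F13a1, 1.01 for F10 and 1.00 for Plau on the log2 scale. For Thbd and F5 the excess was 0.30 and 0.28, and for F3 and Plat it was -0.09 and -0.21. The N1ICD-mdx muscle of replicate 2 had no such excess in F7, F10, F13a1 and Plaur, where it differed from the other N1ICD-mdx muscles by -0.21 to 0.10. The ratio was negative on all 3 arrays for 5 of 9 genes (F7, F10, F13a1, Plaur and Thbd), against 16.4% of all genes, and positive on all for 0 of 9, against 17.6%. The median log2 ratio of the 9 genes was -0.16, against -0.0034 for all genes tested (-0.15 and 0.0038 without replicate 2).

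Markers of macrophages were also highest in mdx replicate 2. Of 20 listed macrophage genes, 19 were kept and 18 had a negative mean ratio, with a median of -0.79 over the list (-0.17, -1.94 and -0.12 on arrays 1, 2 and 3). Their summed normalized intensity was 42410, 80025 and 26626 in the mdx muscles and 39684, 21089 and 24278 in the N1ICD-mdx muscles, and mdx replicate 2 was the highest muscle for 18 of 19. The chemokine receptors Ccr2 (mean -0.88) and Cx3cr1 (-1.38) and the complement gene C1qb (-0.79) had the lowest unadjusted p. None of the list was at background in every muscle and none was called. Without replicate 2 the macrophage median was -0.14, and the named markers Cx3cr1, Ccr2 and C1qb were at -0.55, -0.42 and -0.29, where F7, F10 and F13a1 were at -0.57, -0.58 and -0.50. These 3 markers were picked from the list for their low p, and the other markers do not share their values, as the median shows. The lowest marker of the list was Cx3cr1 on arrays 1 and 2 (-1.16 and -3.03) and Lyz2 on array 3 (-0.49). Cx3cr1 was at 0.05 on array 3. F7, F10 and F13a1 were at -0.54, -0.40 and -0.36 on array 1 and at -2.25, -1.79 and -1.70 on array 2. On array 3 these 3 genes were at -0.59, -0.75 and -0.65. The part of macrophage markers in the coagulation ratios was not tested.

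**Figure D3:**
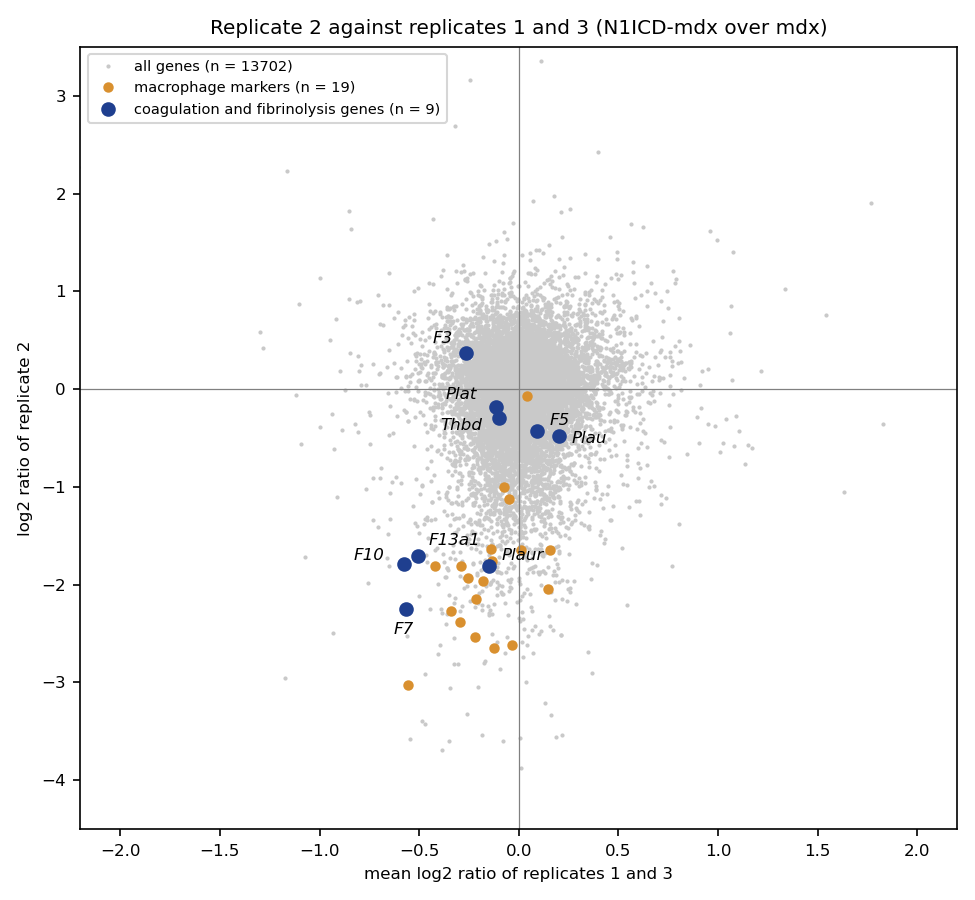
Log2 ratio on array 2 (y axis) against the mean log2 ratio of arrays 1 and 3 (x axis) for all 13702 genes, 19 macrophage markers and the 9 coagulation and fibrinolysis genes. F7, F10, F13a1 and Plaur lie low on the y axis among the macrophage markers, and F7, F10 and F13a1 lie at -0.58 to -0.50 on the x axis.

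Other cell types were read from their marker lists in the same way. In neutrophils 5 of 8 listed genes were kept, all negative, with a median of -0.32 (-0.14 without replicate 2). Of 6 platelet genes 2 were kept, and their signs differed: Pf4, a chemokine of platelets that macrophages can also express, had a mean of -0.94 (-0.35 without replicate 2) and Ppbp 0.24 (0.28). The median of the pair was -0.35, or -0.04 without replicate 2. Their summed intensity of 3688, 11200 and 3514 in mdx and 2697, 2652 and 3008 in N1ICD-mdx muscles was nearly all Pf4, while the level of Ppbp was 6.08, 6.05 and 6.03 in mdx and 6.24, 6.20 and 6.44 in N1ICD-mdx muscles. Ppbp was well above background in at most 1 of 3 mdx muscles but in 3 of 3 N1ICD-mdx muscles. It was thus kept only through the group where it is higher. For this reason its sign and its mdx levels cannot be set against those of Pf4, and the median of the pair carries the same limit. Gp1ba was never above background. Endothelial and fibroblast markers (10 of 10 and 8 of 8 kept) had medians of 0.08 each (0.23 and 0.30 without replicate 2), and Kdr was the only one of them called (-0.59, or -0.36 without replicate 2). Of 6 liver genes, 4 (Alb, Apoa1, Fabp1 and Ttr) were above background in no muscle. In each group Apoa2 and Serpina1a had a probe well above background in all 3 muscles. Their mean ratios were -0.00208 and -0.24 (for Serpina1a 0.31, -1.10 and 0.08 on arrays 1, 2 and 3). The median of these 2 was -0.12, or 0.0059 without replicate 2. All 8 muscle fiber markers had positive mean ratios, with a median of 0.44, but without replicate 2 the median was 0.21 and 4 of the 8 (Actn3, Myh4, Ckm and Des) had means between -0.09 and -0.01. Of them Acta1 (0.92), Tnni2 (0.73) and Mb (0.77), genes of the contractile apparatus and of oxygen storage, were called higher. Among 5 genes of satellite cells and regenerating fibers, Myh3 (-0.73) and Myog (-0.94) were called lower and Myh8 higher (0.54, 1.33 and 0.26 on arrays 1, 2 and 3, mean 0.71, or 0.40 without replicate 2). The Myh8 probe was bright, with levels of 15.63 to 16.34 in mdx muscles, and whether it reads Myh8 alone was not tested. The median of the 5 genes was -0.02, or -0.05 without replicate 2. Erythroid genes (5 of 6 kept) had a median of -0.09 (-0.15 without replicate 2) and none was called. The part of these cell types in the coagulation ratios was not tested.

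**Figure D4:**
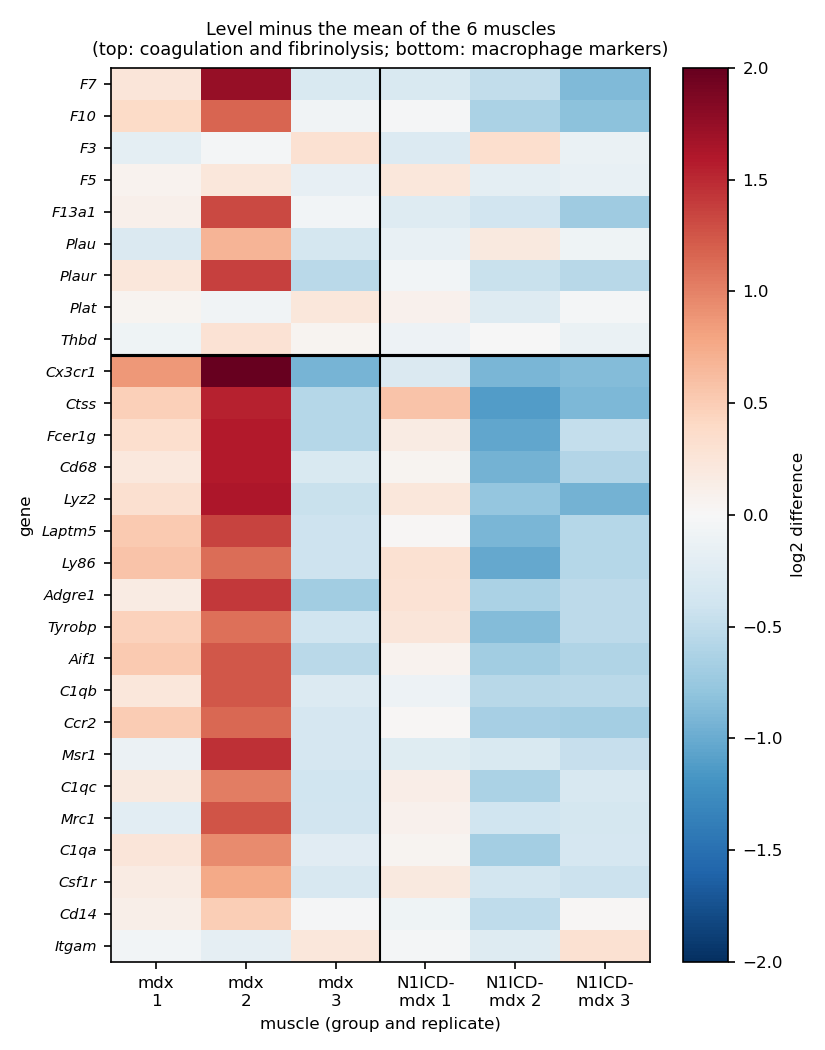
Level of each gene minus its mean over the 6 muscles (color, log2 difference) in each muscle (x axis), for the 9 coagulation and fibrinolysis genes (top) and 19 macrophage markers (bottom). The mdx muscle of replicate 2 is the highest column for 7 of the 9 genes and 18 of the 19 markers.

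The rest of the pathway was read from a list of 42 further genes of coagulation, its inhibitors and fibrinolysis. Of these, 22 were kept and 13 were above background in no muscle. The genes without signal included F2 (prothrombin), F8, F12, Fgb and Fgg (fibrinogen chains), Plg (plasminogen) and Proc (protein C), the proteins of which come mainly from the liver. Not every such gene of the list was without signal. F9 had a probe well above background in 3 of 3 muscles of each group. F11, Cpb2 and Hrg had 1 in 3 of 3 N1ICD-mdx muscles, but in at most 2, 2 and 1 of 3 mdx muscles. Of the 22 kept, 15 had a negative and 7 a positive mean ratio, where 6970 of all 13702 genes had a negative one. Of the 22, 0 were called, where 0.956% of all genes were. At an unadjusted p under 0.05, 1 gene of the list passed, where 890 of all 13702 genes did. It was Gas6, which encodes a vitamin K-dependent ligand (-0.16, -0.61 and -0.45, mean -0.41, or -0.30 without replicate 2). The adjusted p of Gas6 was 0.704 (limma). The median of the list was -0.11, and its medians by array were 0.12, -0.25 and -0.03. Without replicate 2 it was 0.05.

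Lrp1, Anxa2 and Gas6 were among the lowest ratios of the list. Lrp1, a clearance receptor for activator and inhibitor complexes, and Anxa2, a cell-surface binding protein for plasminogen and tissue activator, had means of -0.49 and -0.46. On array 2 their ratios were -1.51 and -1.74. Without replicate 2 the means of Lrp1 and Anxa2 were 0.02 and 0.18, so that arrays 1 and 3 did not share the lower values of array 2. The highest ratios were those of Procr, the endothelial receptor for protein C (0.07, 0.92 and -0.02, mean 0.32), F2r, a thrombin receptor (mean 0.19), Kng1, a kininogen (0.13), and Ggcx, the carboxylase of vitamin K-dependent factors (0.11). None of these 4 was called. Kng1 was well above background in at most 2 of 3 mdx muscles but in 3 of 3 N1ICD-mdx muscles. It was thus kept only through the group where it is higher, which limits its place in this ranking.

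Over the 3 ratios, the genes most like F7 by Euclidean distance were Blnk (0.164), Abcg1 (0.252), Dok2 (0.314), Vav1 (0.329) and Pld3 (0.350). For Blnk the ratios were -0.51, -2.12 and -0.49. Leaving out genes with only a RIKEN, Gm or LOC name, the gene most like F10 was F13a1 (distance 0.142), followed by Psap (0.210), Knstrn (0.298) and S100a6 (0.348). These distances rest on 3 arrays and describe a pattern dominated by array 2.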

How the data were processed

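RNA of TA muscles from 3 mdx and 3 N1ICD-mdx mice was hybridized pairwise to 3 Agilent SurePrint G3 mouse arrays. The authors extracted the arrays with Agilent Feature Extraction (11.5.1.1 per the file headers). The deposited intensity values are median signals and local backgrounds per spot and channel, not normalized, beside processed signals that the software had background-subtracted and dye-normalized. The deposited flags (other values) mark spots well above background, saturated or outlying. The members and gene lists were chosen with earlier results of these data known. Genes were named by a rule: all members, the called and the 4 lowest and 4 highest ratios of the pathway list, and up to 3 of the lowest p in each marker list are given, with neighbors and the 5 most similar genes of F7 and F10. Some genes that the rule names are not reported here.

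Median signals were corrected by normexp (offset 50) and normalized by loess within arrays in limma 3.58.1 (R 4.3.3, version 1.17.8 of data.table), with control spots at weight 0, outlier-flagged spots dropped and spots of a probe averaged. A probe was kept when every muscle of a group, or of both groups, was well above background, and the brightest of a gene was used. RefSeq accessions named 28026 of 55681 probes, of which 17811 were kept (13702 genes). Tables of RefSeq for GRCm38.p6 gave names, gene order and upstream sequences. Probe sequences were not used here. Levels followed Aquantile normalization. The 3 log2 ratios were tested against 0 by limma with Benjamini-Hochberg adjustment. The shared array pairs the muscles of a replicate, and the deviations of same-numbered muscles from their group means correlated at r of -0.02, -0.29 and 0.33 (replicates 1, 2 and 3). Those of differently numbered muscles ranged from -0.63 (mdx 3 with N1ICD-mdx 1) to 0.50 (mdx 2 with N1ICD-mdx 1). These values thus show no greater likeness within pairs. With 3 arrays the precision is limited by their number. The fit was tested on simulated data. The alternatives were other background corrections, median centring, other filters, the mean over probes, 1 replicate fewer, an unpaired fit, the methods' t-test and array quality weights.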

Additional observations from a re-analysis of the deposited data

How the results depend on the processing

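F7, F10, F13a1, Plaur, Plat and Thbd kept a negative mean log2 ratio in all 14 settings run, from -2.07 to -0.57 for F7 (-2.07 is the probe A_51_P484054, the brighter of the 2 on processed signals, where A_55_P2045040 gave -2.37), -1.82 to -0.58 for F10, -1.18 to -0.50 for F13a1 and -1.05 to -0.15 for Plaur, and F3, F5 and Plau took the other sign in 7 values in all. The 131 genes called (66 lower, 65 higher) became 444 (173 lower, 271 higher) with processed signals, 222 with a normexp offset of 10, 421 (391 lower, 30 higher, median gene -0.18) with median centring, 67 with the methods' t-test, 206 with array quality weights and 185 to 207 with 1 replicate left out. The cause was not tested. Of the 9 genes, 3 were called, but 1 (F10) without a filter on dim probes and 0 with the methods' t-test. With 1 replicate left out, 0 to 2 were called: 2 (F10 and F13a1) without replicate 1, 0 without replicate 2 and 1 (F7) without replicate 3. Without replicate 2, F7, F10 and F13a1 were 1.48, 1.49 and 1.42-fold lower, under the 1.5-fold limit. Their unadjusted p-values there were 0.000775, 0.00263 and 0.00374, and their adjusted p-values 0.122, 0.132 and 0.145 (limma). In that setting 2103 of 13702 genes had an unadjusted p under 0.05, against 890 in the main setting. The mean over probes left F10 and F13a1 called. At an adjusted p under 0.05, 0 genes were called, 1 with array quality weights and 0 to 3 with 1 replicate left out. Without the replicate block, as an unpaired analysis of 2 groups of 3, 124 genes were called, 1 of them at an adjusted p, and 2 of the 9 (F10 and F13a1). None of the further coagulation genes was called in any setting run. Of the 42 listed, 22 were kept in the main setting, and genes that a filter dropped could not be called. F7, F5 and F10 lay close to background in some muscles, which limits the size of their ratios.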
